A study of Mus musculus with 4 samples.

Results

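The genes described here are those of the integrins, the laminins and 4 further basement membrane components in the testes of adult male mice of 2 genotypes. They were chosen by a rule on names, set with earlier results of these data known. The rule took every gene whose symbol marks an integrin alpha or beta chain or a laminin alpha, beta or gamma chain. It also took Nid1, Nid2, Hspg2 and Agrn. The Affymetrix 430A array had to have a probe set for each gene that names no other gene. This gave 36 genes of 12393 measured, namely 22 integrin chains, 10 laminin chains and the 4 others. They are covered by 63 probe sets, and each gene is represented by its probe set with the highest mean log2 signal. Itga1, Itga10, Itga11, Itgad and Itgb8 were not analysed here.

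Both genotypes are males whose testes do not make normal sperm. W/Wv males, bought in and bred from WB and B6 parents, carry mutations of Kit, the receptor that germ cells need, and are a standard host for germ cell transplantation. XX/Sry males carry 2 X chromosomes and an Sry transgene, which turns the XX gonad into a testis (the sources used here name no strain). Each genotype was measured once as whole testis and once as seminiferous tubules freed from the tissue between them with collagenase, named testis and tubules from here on, so the 4 groups hold 1 array each, and nothing says how many animals stand behind an array. A difference is therefore a ratio of single arrays, and fewer cells of a type and less RNA per cell cannot be told apart in any of them.

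Integrins are receptors made of an alpha and a beta chain that span the cell membrane and tie the cytoskeleton to the matrix outside. Laminins are cross-shaped molecules of an alpha, a beta and a gamma chain, and with type IV collagen, the nidogens, perlecan and agrin they form the basement membrane, the thin sheet on which epithelia rest. In the testis that sheet lies around each seminiferous tubule, between the Sertoli cells and spermatogonia inside and the peritubular myoid cells outside, and blood vessels and Leydig cells have basement membranes as well.

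Markers of tissue and genotype were as labelled. Of the Sertoli cell markers 18 of 20 lay above background on all 4 arrays, and of the Leydig cell markers 8 of 8. Eif2s3y, of the Y chromosome, read 795 (testis) and 580.3 (tubules) for W/Wv against 9.5 and 28.2 for XX/Sry. Background was set at the brightest of 27 probe sets for bacterial genes that mouse RNA does not match, which was between 46.1 and 76.3 on the 4 arrays. Of the 36 genes, 21 lay above it on all 4 arrays, while Itgb3 and Itgam lay below it on every array. The markers named for this gene group, Itga6 and Nid2, were above it on all 4. The signals of 18 spike controls, which are added to every sample at the same amount before hybridisation, stood higher in W/Wv tubules, at a median log2 ratio of 0.56 to W/Wv testis and of -0.66 for XX/Sry over W/Wv tubules, whereas the medians over all genes were -0.15 and 0.00.

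**Figure D1:**
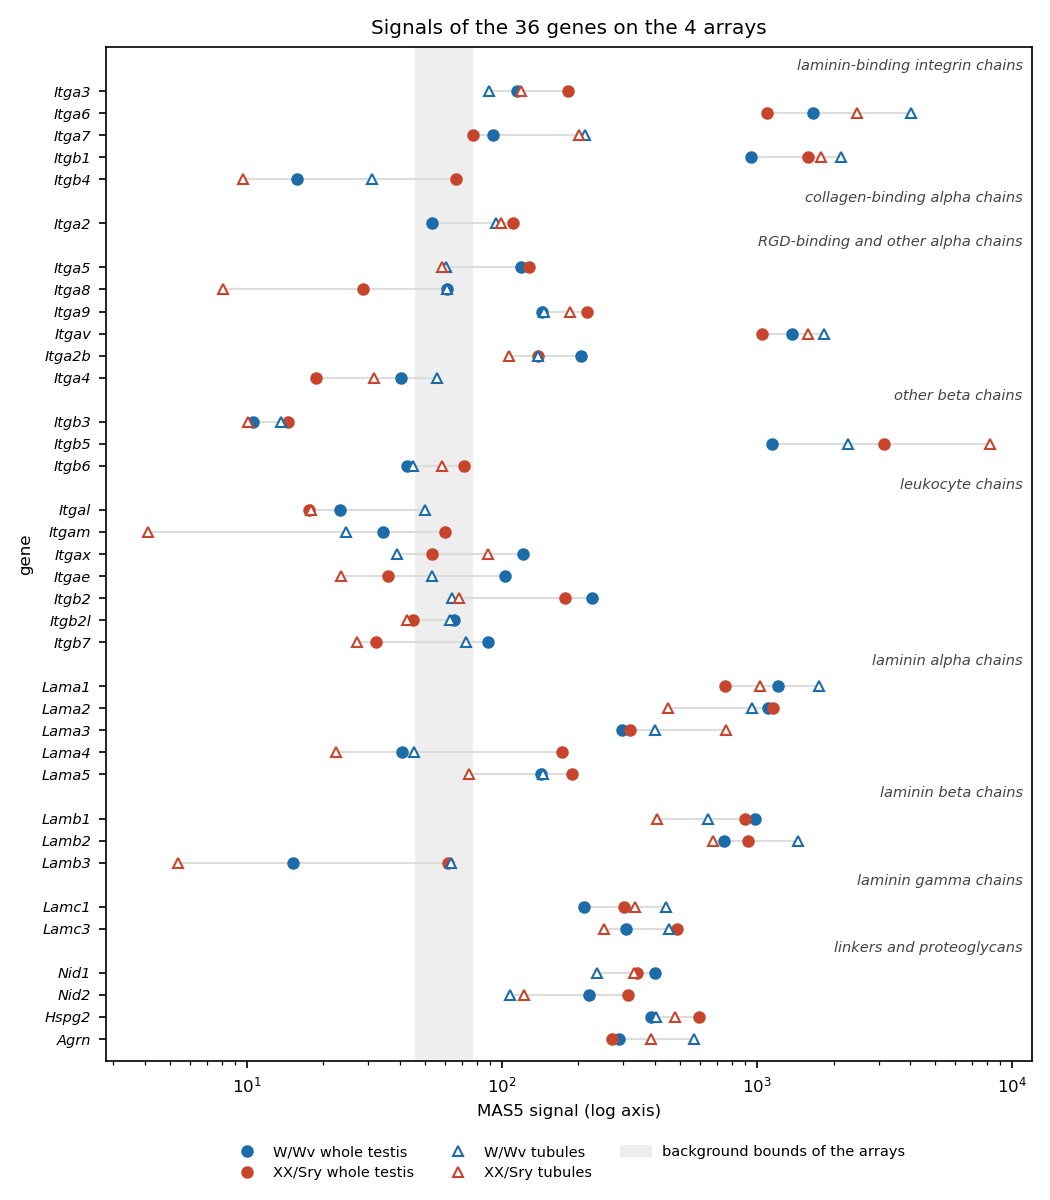
MAS5 signal (log axis) of each of the 36 genes, grouped by role, on the 4 arrays; circles are testis, triangles tubules, blue W/Wv and red XX/Sry, and the grey band spans the background bounds of the arrays, 46.1 to 76.3. Itgb5 runs from 1148 in W/Wv testis to 8197 in XX/Sry tubules, and of the 7 leukocyte chains Itgb2 alone lies above background on all 4 arrays.

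The first comparison set XX/Sry against W/Wv in each preparation, the question being how the somatic cells of these recipients differ. Itgb5 was the only gene of the 36 that was at least 2-fold higher in XX/Sry in both preparations, against 1.98% of all genes. Itga8, Itgae and Itgb7 passed in the lower direction by the deposited signals, against 3.22% of all genes, but at signals near background. Against the background bound Itgb5 still passed and 0 genes were lower, with 0.767% of all genes higher and 0.484% lower by that measure. The other 32 genes passed in neither direction. The median log2 ratio of the 36 genes was 0.11 in testis and -0.50 in tubules, beside medians of -0.10 and 0.00 over all genes.

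Itgb5 encodes the beta5 chain, which pairs with the alphaV chain of Itgav to form a receptor for vitronectin. In testis its signal was 1148 for W/Wv and 3159 for XX/Sry, and in tubules it was 2268 and 8197. It was thus 2.75-fold higher in XX/Sry testis and 3.61-fold higher in XX/Sry tubules.

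A fit of genotype and preparation to all 4 arrays, which uses the disagreement between the pairs as its error, gave Itgb5 a log2 ratio of 1.66 with a standard error of 0.25 and an adjusted p of 0.0329 (limma, adjusted over 22626 probe sets). The ratio was above 0 in 2 of 2 preparations, which the 2-fold rule that picked Itgb5 already requires. That fit called 0.15% of all probe sets for genotype. The call rests on letting the error depend on signal: with 1 common prior for all signals the adjusted p of Itgb5 was 0.706, and 0 probe sets of any gene passed.

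Itgb5 has 4 probe sets, and each of them was at least 2-fold higher in XX/Sry in both preparations. Their log2 ratios ran from 1.03 to 1.76 in testis and from 1.46 to 1.85 in tubules. In the fit 3 of the 4 passed, and the remaining one had a log2 ratio of 1.30 with an adjusted p of 0.0916. The 4 probe sets read the same RNA samples and are not replicates of each other.

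**Figure D2:**
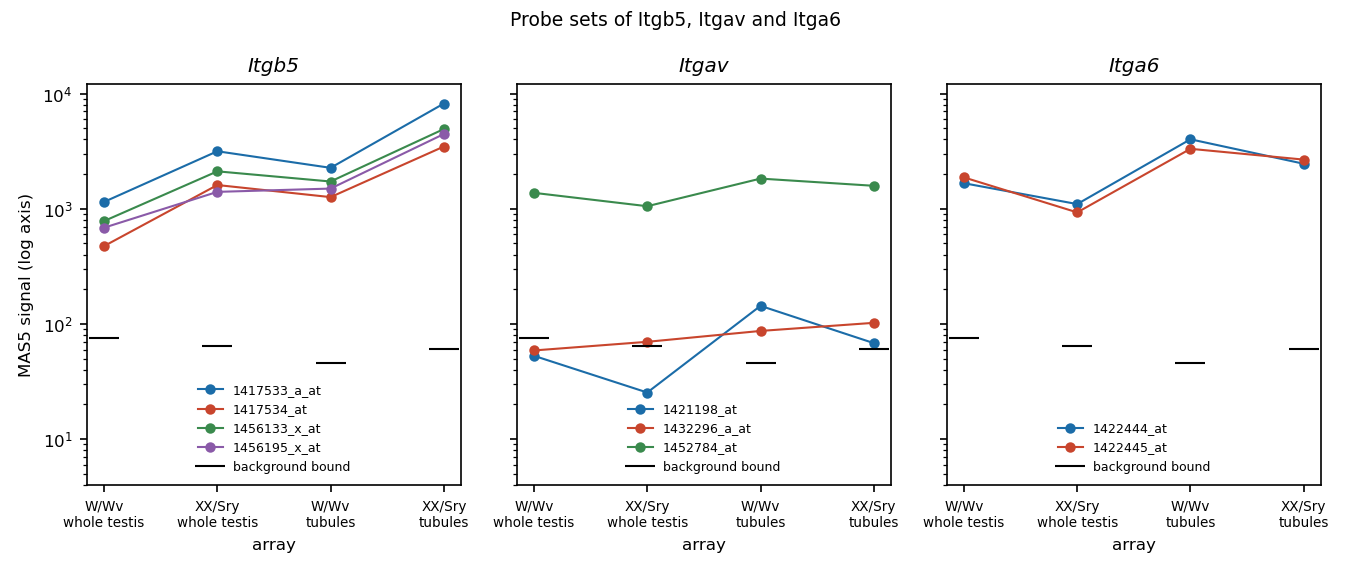
MAS5 signal (log axis) of every probe set of Itgb5, Itgav and Itga6 on the 4 arrays; each line joins the values of 1 probe set and black dashes are the background bounds. The 4 lines of Itgb5 run together and end highest in XX/Sry tubules, the bright Itgav probe set stays between 1053 and 1829, and both Itga6 probe sets are higher in tubules than in testis of the same genotype.

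Itgav, the partner chain, did not follow Itgb5. Its signals were 1376 and 1053 in testis of W/Wv and XX/Sry, and 1829 and 1584 in the tubules of the same genotypes. XX/Sry was 1.31-fold and 1.16-fold lower, which misses the threshold in the opposite direction. The fit gave a log2 ratio of -0.30 with a standard error of 0.24 (adjusted p of 0.814). Of its 3 probe sets a dim one passed as lower in XX/Sry, with 52.9 against 25.4 in testis, both below background, and 144 against 68.2 in tubules.

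The stretches upstream of Itgb5 and Itgav are shown because the chains share 1 receptor while only Itgb5 moved. RefSeq promoter windows in the GRCm38.p6 build, from 250 bases before to 50 after the annotated start, were found for 23 of the 36 genes. The window of Itgb5 is chr16:33829415-33829714 and that of Itgav chr2:83724147-83724446, both on the plus strand and printed 5′ to 3′, with capitals marking the GC box (GGGCGG on either strand).
Itgb5: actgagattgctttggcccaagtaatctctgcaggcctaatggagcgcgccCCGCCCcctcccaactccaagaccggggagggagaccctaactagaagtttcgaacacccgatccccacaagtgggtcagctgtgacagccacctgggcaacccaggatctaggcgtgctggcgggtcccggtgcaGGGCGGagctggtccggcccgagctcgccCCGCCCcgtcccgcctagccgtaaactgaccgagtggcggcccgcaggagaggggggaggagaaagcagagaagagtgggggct
Itgav: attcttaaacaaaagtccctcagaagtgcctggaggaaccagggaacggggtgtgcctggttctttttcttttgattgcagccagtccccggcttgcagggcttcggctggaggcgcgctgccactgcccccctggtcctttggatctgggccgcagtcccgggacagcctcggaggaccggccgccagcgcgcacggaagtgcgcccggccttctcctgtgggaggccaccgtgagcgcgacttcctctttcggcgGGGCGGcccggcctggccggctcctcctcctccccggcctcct
The Itgb5 window holds 3 GC boxes and the Itgav window 1, and their G and C contents are 65.7% and 67.3%, beside a median of 52.7% over all 32851 windows. At least 1 GC box occurs in 35.7% of all windows and in 16 of 27 windows of the integrin, laminin and linker genes. Neither of the printed windows holds, on either strand, the CCAAT box (spelled by its name, in 37.4% of all windows), the TATA box TATAAA (13.6%), the AP-1 site TGACTCA (5.2%) or the SOX core AACAAT (10.7%). These are matches of letters and no measure of binding.

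Of the further beta chains, Itgb6 and Itgb3 were dim. Itgb6, of an epithelial receptor that activates latent TGF-beta, was above background on 1 array (71.2 in XX/Sry testis). Itgb3, the platelet and osteoclast chain, had at most 14.6. Among the alpha chains that bind fibronectin, vitronectin or related ligands, Itga5 had signals of 119 and 128 in testis and of 60.3 and 58.4 in tubules of W/Wv and XX/Sry, 1.08-fold higher for XX/Sry in testis; its tubule value for XX/Sry lay below background. In XX/Sry Itga9 was higher by 1.499-fold and 1.26-fold and Itga2b, the platelet chain, 1.47-fold and 1.30-fold lower. The other 2 probe sets of Itga9, each below background on at least 1 array, had ratios of opposite sign in the preparations. Itga4 and Itga8 exceeded background only in W/Wv tubules, with 55.6 and 60.8, so the 2-fold difference of Itga8 has no measured size. Itga2, a collagen receptor chain, had 53.2 in W/Wv testis, below background, against 111 in XX/Sry testis, and 95.0 and 99.5 in tubules.

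The laminin-binding chains did not pass in the genotype comparison. Itga6, which pairs with the beta1 or beta4 chain and is used as a surface marker to enrich spermatogonial stem cells, had signals of 1668 and 1099 in testis of W/Wv and XX/Sry and of 4013 and 2461 in tubules. It was 1.52-fold and 1.63-fold lower in XX/Sry. The fit gave a log2 ratio of -0.65 with a standard error of 0.24 and an adjusted p of 0.453, so the difference did not pass. Markers of spermatogonia and early germ cells moved the same way: 6 of 11 passed as lower in XX/Sry (3 of them against the background bound), and their summed signals were 4921 and 1735 in testis of W/Wv and XX/Sry and 3540.1 and 2226 in tubules. Whether they bear on the Itga6 ratio was not tested.

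The remaining laminin receptors gave no common direction. Itgb1, the beta chain shared by most integrins, had signals of 952 and 1583 in testis of W/Wv and XX/Sry and of 2140.2 and 1789 in tubules, 1.66-fold higher and 1.20-fold lower in XX/Sry. Its second bright probe set ran the opposite way, with log2 ratios of -0.13 in testis and 0.52 in tubules, so no direction is given. Itga3, a receptor chain for laminin in epithelia, exceeded W/Wv in XX/Sry by 1.58-fold and 1.34-fold; a dimmer probe set was more than 2-fold higher in both, starting from signals of 10.0 and 33.3 that lie below background. Itga7, known as the laminin receptor chain of muscle, differed by 1.20-fold and 1.05-fold. Itgb4, the chain of hemidesmosomes, was above background on 1 array, XX/Sry testis (66.4).

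The leukocyte chains were mostly at background. Itgae and Itgb7 pair with each other on lymphocytes of epithelia. Itgae had 104 and 53.1 in the testis and tubules of W/Wv against 35.7 and 23.5 in XX/Sry, and Itgb7 had 88.7 and 72.6 against 32.3 and 27.0. All 4 XX/Sry values lay below background, so Itgae was at least 1.62-fold lower in testis with no fold to give in tubules, and Itgb7 was lower by at least 1.39-fold in testis and at least 1.19-fold in tubules. None of the 12 lymphocyte markers measured was above background on all 4 arrays, and Cd3d, Cd3g, Cd8b1 and Cd6 were below it on all. Itgal, Itgam and Itgb2l were above background on at most 1 array. Itgax, of dendritic cells and macrophages, went opposite ways: in testis 121 for W/Wv against 53.1 for XX/Sry, a drop of at least 1.89-fold, and in tubules 38.9 against 88.1, a gain of at least 1.91-fold.

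**Figure D3:**
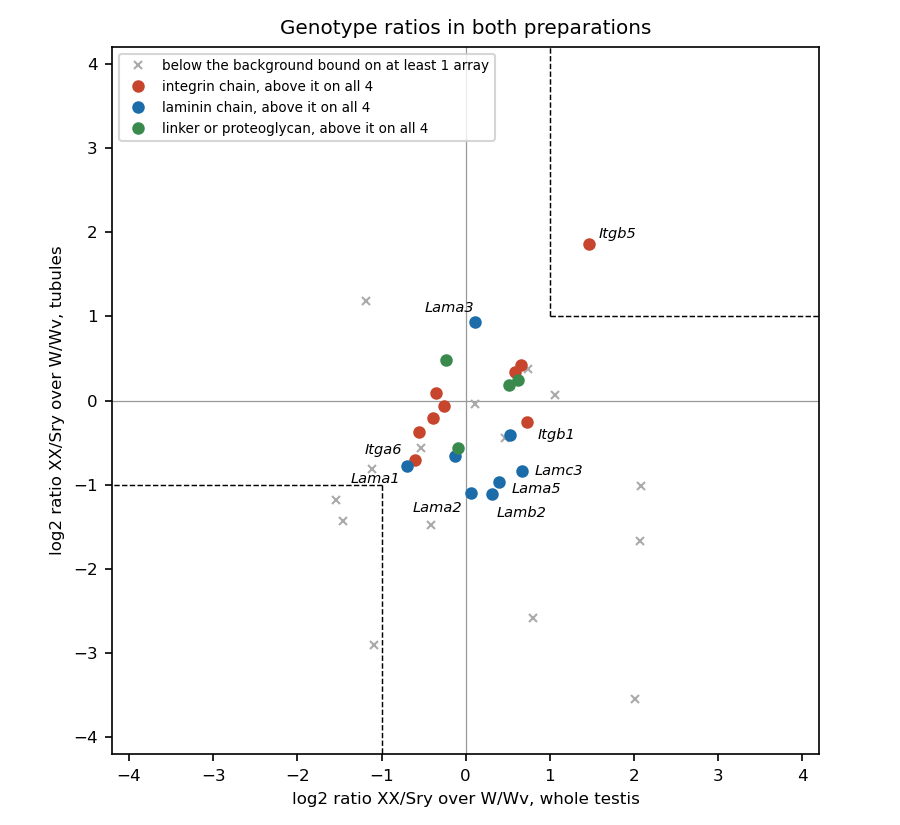
Log2 ratio of XX/Sry over W/Wv in tubules (vertical) against that in testis (horizontal) for the 36 genes; dots are the 21 genes above background on all 4 arrays, grey crosses the others, and dashed corners mark 2-fold in both preparations. Among the dots Itgb5 alone lies inside a corner, and 7 of the 8 laminin dots lie below the horizontal line at 0.

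No laminin chain passed in both preparations or in the fit. Of the 10 chains, 9 had a log2 ratio below 0 in tubules and 2 in testis, and the medians were -0.90 and 0.35. Over the 8 chains above background on all 4 arrays the medians were -0.81 and 0.21, with 7 of 8 below 0 in tubules, beside medians of 0.00 and -0.05 over all genes above background on all 4 arrays. In tubules alone 4 of 10 chains reached 2-fold lower in XX/Sry, against 10.3% of all genes; 2 of them, Lama2 and Lamb2, were above background on all 4 arrays.

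Among the alpha chains, Lama2, whose loss causes a muscular dystrophy, had signals of 1110 and 1158 in testis of W/Wv and XX/Sry and of 961 and 448 in tubules. The first 3 values lie together and the last stands below them, a 2.15-fold difference in tubules and one of 1.04-fold in testis. Lama5, the widespread alpha chain of mature basement membranes, was 1.31-fold higher for XX/Sry in testis and, at 74.2 against 146, 1.96-fold lower in tubules. A second probe set of Lama5, also above background on all 4 arrays, was 1.29-fold and 1.37-fold lower, so the direction in testis is not settled. Lama1, the alpha chain typical of embryonic basement membranes and of the seminiferous tubule, behaved alike in both preparations. Its signals were 1211 and 748 in testis and 1760 and 1025 in tubules of W/Wv and XX/Sry, which made XX/Sry 1.62-fold and 1.72-fold lower. The fit gave it a log2 ratio of -0.74 with a standard error of 0.25, an unadjusted p of 0.0121 and an adjusted p of 0.391, so it did not pass.

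Lama3, the alpha chain of skin-type anchoring laminins, was the only chain whose representative probe set was higher in XX/Sry tubules. Its signals were 296 and 318 in testis and 398 and 759 in tubules, 1.08-fold and 1.91-fold higher. Lama4, of blood vessel laminins, has 2 dim probe sets that contradict each other: one had 40.8 and 173 in testis of W/Wv and XX/Sry, the other 128 and 26.0.

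Among the beta and gamma chains, the deposited signals of Lamb2 and the dim Lamb3 were at least 2-fold lower for XX/Sry in tubules. Lamb2 had 746 and 927 in testis of W/Wv and XX/Sry and 1454 and 672 in tubules, 1.24-fold higher and 2.17-fold lower. Lamb1, the beta chain of the classical laminin, was 1.09-fold and 1.58-fold lower, and its 3 probe sets had log2 ratios between -1.24 and -0.66 in tubules. Lamc1, the common gamma chain, was 1.44-fold higher and 1.32-fold lower. Lamc3 had 308 and 489 in testis and 452 and 253 in tubules, 1.59-fold higher and 1.79-fold lower. Its second probe set, above background on all 4 arrays, was 1.05-fold higher and 1.28-fold lower. Lamb3, which pairs with the chain of Lama3, was above background on 1 array (63.2 in W/Wv tubules).

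With 1 array per group the difference between the preparations cannot be tested, and it equals the disagreement that the fit counts as error. A sign change with a double ratio of at least 2-fold was seen in Lama2, Lama5, Lamb2 and Lamc3, and in Itgax. That was 5 of the 24 integrin, laminin and linker genes that could show one, and 4 of 8 such laminin chains. Over all genes that could show one the share was 15.2%. Those values are of the representative probe sets: the second probe sets of Lama5 and Lamc3 had double log2 ratios of -0.09, with no sign change, and -0.43, under 2-fold. Lama2, Lamb2 and Itgax have 1 probe set each. Medians of marker lists, in testis and then in tubules, were 0.39 and 0.10 over 10 peritubular myoid genes and -0.01 and -0.23 over 20 Sertoli genes. They were 0.14 and -0.33 over 18 macrophage and leukocyte genes and 0.28 and 0.09 over 15 endothelial genes. The 8 Leydig genes had 0.58 and 1.13, and the 11 spermatogonial genes -2.60 and -1.24. Whether any of these cells bear on the laminin ratios was not tested. Scaling the arrays to the spike controls in place of the deposited scaling, an alternative chosen after seeing the data, moved the laminin median in tubules to -0.28 and that of all genes to 0.62.

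**Figure D4:**
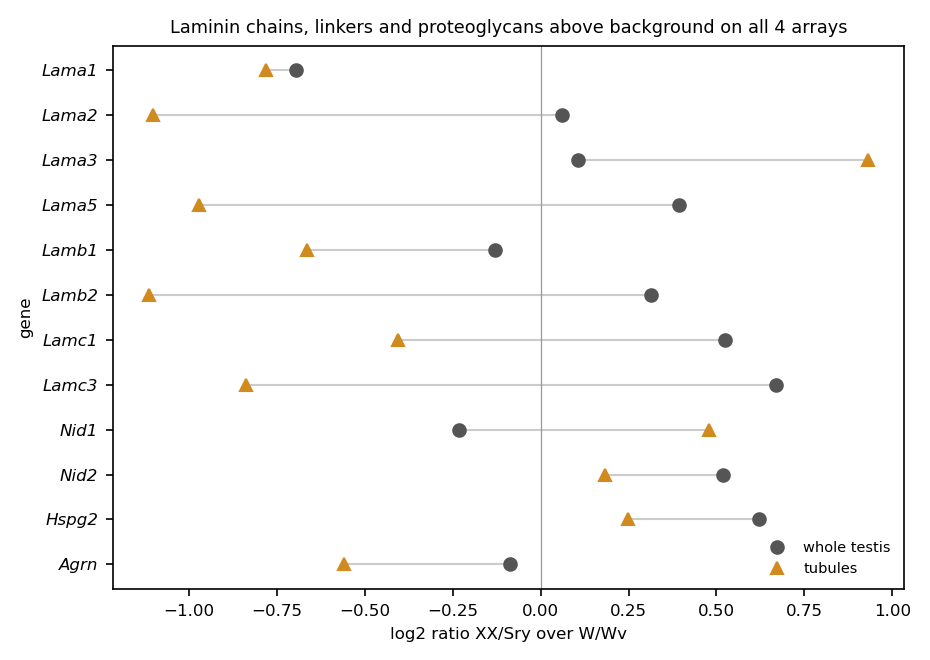
Log2 ratio of XX/Sry over W/Wv in testis (grey circles) and in tubules (orange triangles) for the 8 laminin chains and the 4 linker and proteoglycan genes that were above background on all 4 arrays. The triangle lies left of the circle for 7 of the 8 laminin chains, Lama3 being the other, and for 3 of the 4 linker genes.

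The linkers and proteoglycans had median log2 ratios of XX/Sry over W/Wv of 0.22 in both preparations, with 0 of 4 past 2-fold in both. Nid1 and Nid2 join the laminin and collagen networks. Nid1 had 398 and 338 in testis of W/Wv and XX/Sry and 237 and 330.2 in tubules, 1.18-fold lower and 1.39-fold higher, and its second probe set 1.77-fold lower and 1.17-fold higher. Nid2 had 219 and 314 in testis and 108 and 122 in tubules, 1.43-fold and 1.14-fold higher. Hspg2, which encodes perlecan, had 386 and 593 in testis and 404 and 480 in tubules, 1.54-fold and 1.19-fold higher; its dimmer probe set was 1.74-fold higher in testis and 1.01-fold lower in tubules. Agrn, which encodes agrin, was 1.06-fold and 1.47-fold lower. None of these ratios passed in the fit.

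Of the other basement membrane genes, a list of matrix partners and laminin receptors outside the integrins, 27 of 32 were measured and 0 passed in either direction in the genotype comparison. Their median log2 ratios were 0.41 in testis and 0.15 in tubules. Col4a1, Col4a2, Dag1 and Fn1 are named here after their values were seen. The type IV collagen chains ran above 0 in both preparations: in XX/Sry Col4a1 was higher by 1.74-fold and 1.34-fold and Col4a2 by 1.29-fold and 1.55-fold. Dag1, for dystroglycan, the main laminin receptor that is no integrin, was 1.46-fold and 1.93-fold lower, and Fn1, for fibronectin, 1.30-fold and 2.29-fold lower. Of the 29 genes measured for the adaptors and kinases inside the cell and the membrane partners of integrins, 1 was higher in both preparations and 0 lower. It was Parva, an actin-binding partner of the integrin-linked kinase, which had signals of 102 and 225 in testis of W/Wv and XX/Sry and of 74.6 and 192 in tubules. It was higher by 2.20-fold and 2.58-fold, with an adjusted p of 0.501.

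The second comparison was of tubules with testis of the same genotype. The digestion (5 mg/ml collagenase, 40 min, 37 °C), the 70 µm strainer and any difference between animals enter it together. Itga6 and Itga7 were at least 2-fold higher in tubules in both genotypes, against 1.32% of all genes, and Itgb2 and Nid2 at least 2-fold lower, against 5.74%. The 4 genes passed against the background bound too, by which 0.452% of all genes were higher and 2.4% lower. The other 32 passed in neither direction. The median log2 ratio of the 36 genes was 0.12 in W/Wv and -0.30 in XX/Sry, beside -0.15 and -0.02 over all genes.

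Itga6 was higher in tubules, 2.41-fold in W/Wv and 2.24-fold in XX/Sry. The fit gave a log2 ratio of 1.22 with a standard error of 0.24 and an adjusted p of 0.0364 (limma). It called 1.22% of all probe sets in this comparison. The sign in 2 of 2 genotypes is already required by the 2-fold rule. The second probe set of Itga6 had log2 ratios of 0.82 and 1.52 and missed in the fit with an adjusted p of 0.0635. As for Itgb5, no call was left with a common prior for all signals (adjusted p of 0.57 for Itga6). Scaled to the spike controls, the W/Wv log2 ratio of Itga6 fell to 0.72, under 2-fold.

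Itga7 had 92.6 and 77.2 in testis of W/Wv and XX/Sry and 212 and 202 in tubules. It was 2.29-fold and 2.61-fold higher, with a log2 ratio of 1.29, a standard error of 0.50 and an adjusted p of 0.282, which did not pass. It was under 2-fold in both genotypes with a constant of 50 added to all signals, and in W/Wv (log2 ratio of 0.65) when scaled to the spike controls. Itgb1 was 2.25-fold higher in W/Wv tubules and 1.13-fold higher in XX/Sry tubules, and its second bright probe set had log2 ratios of 0.60 and 1.25.

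By the deposited signals Itgb5 lay on the threshold. It was higher in tubules by 1.98-fold in W/Wv and 2.60-fold in XX/Sry, while its 3 other probe sets were at least 2-fold higher in both genotypes. These 3 passed the fit, with adjusted p of 0.0254, 0.0343 and 0.0435, and the representative probe set had a log2 ratio of 1.18 with a standard error of 0.25 and an adjusted p of 0.0505. So of the 63 probe sets 4 were called higher in tubules, 3 of Itgb5 and 1 of Itga6, and 0 lower; at an unadjusted p under 0.05 there were 11 higher and 5 lower, 25.4% of the 63 beside 13.9% of all probe sets. Scaled to the spike controls, the representative probe set of Itgb5 had log2 ratios of 0.44 in W/Wv, under 2-fold, and 1.36 in XX/Sry. Itgav was 1.33-fold and 1.504-fold higher in tubules by the deposited signals.

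Markers of other cells are given beside these values. The 20 Sertoli markers had summed signals of 132734 and 139136 in testis of W/Wv and XX/Sry and of 180804 and 161633 in tubules, with 0 of 20 past 2-fold in both genotypes and medians of 0.56 and 0.23. The 10 peritubular myoid and smooth muscle markers had sums of 20161 and 23023 in testis and of 29900 and 27449 in tubules, and 1 of 10, Tpm2, a tropomyosin of muscle, passed. Of the 11 spermatogonial markers, also of cells inside the tubule, 1 passed as lower in tubules in both genotypes, and the medians were -1.24 for W/Wv but 0.20 for XX/Sry, with the sums given above. Of the 15 meiotic and spermatid markers 3 passed as lower, with 12 of 15 at least 2-fold lower in the W/Wv pair. Their medians were -2.64 and 0.15, and their sums 5123 and 603 in testis of W/Wv and XX/Sry and 434 and 707 in tubules. The 15 endothelial markers had sums of 2087 and 2728 in testis and of 3181 and 3522 in tubules. Which of these cells carry the Itga6, Itga7 and Itgb5 signals was not tested. The 8 Leydig markers, with 6 of 8 lower in tubules and sums of 51768 and 73018 in testis and of 13810 and 28251 in tubules, moved opposite to Itgb5 between preparations and the same way between genotypes.

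Itgb2, the beta2 chain shared by the leukocyte integrins, had 227 and 177 in testis of W/Wv and XX/Sry and 64.0 and 68.1 in tubules. It was 3.54-fold and 2.60-fold lower in tubules. In the fit its log2 ratio of -1.60 had a standard error of 0.54 and an adjusted p of 0.209, which did not pass. Macrophage and leukocyte markers moved with Itgb2: 13 of 18 were at least 2-fold lower in tubules in both genotypes and 0 higher. Of the 18, 2 were below background on at least 1 array. Their summed signals were 26190 and 26455 in testis against 8197 and 6452 in tubules. Their part in the Itgb2 result was not tested. With a constant of 50 added Itgb2 fell by 1.28 and 0.94 on the log2 scale.

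Nid2 was 2.04-fold lower in W/Wv tubules and 2.57-fold lower in XX/Sry tubules, just past the threshold in W/Wv, with a log2 ratio of -1.19, a standard error of 0.44 and an adjusted p of 0.255. It passed neither after median scaling nor after quantile normalisation, where the W/Wv log2 ratios were -0.80 and -0.81. Nid1 was 1.68-fold and 1.02-fold lower. Agrn had 289 and 272 in testis and 568 and 386 in tubules, 1.97-fold and 1.42-fold higher, and Hspg2 differed by at most 1.24-fold. Itga5 was close to the threshold on the lower side, with tubules 1.97-fold below testis in W/Wv and at least 2.11-fold below it for XX/Sry.

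**Figure D5:**
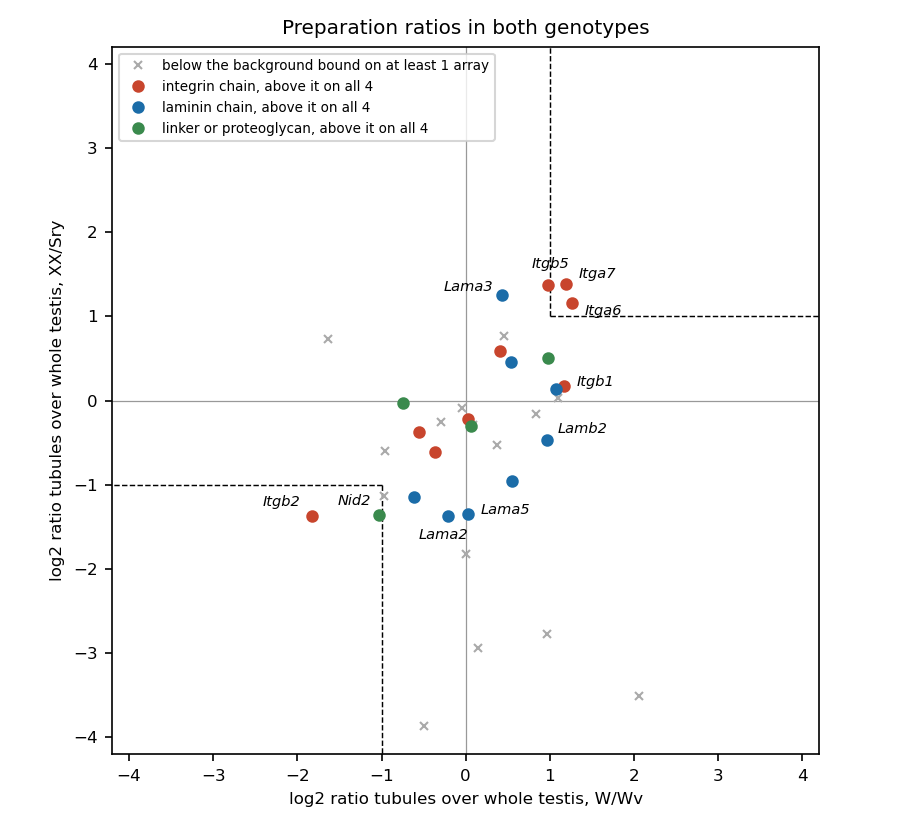
Log2 ratio of tubules over testis in XX/Sry (vertical) against that in W/Wv (horizontal) for the 36 genes, drawn as in the plot of genotype ratios. Itga6 and Itga7 lie in the upper corner with Itgb5 on its edge, Itgb2 and Nid2 in the lower one, and several laminin chains lie right of 0 and below the horizontal line.

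The laminin chains had a median log2 ratio of tubules over testis that was 0.48 in W/Wv but -1.05 in XX/Sry, the same disagreement seen from the other side. In XX/Sry 5 of 10 chains were at least 2-fold lower in tubules, against 14.1% of all genes. Lama4 and Lamb3 among them were dim. Of the chains above background on all 4 arrays it was 3 of 8 (Lama2, Lama5 and Lamb1), beside 567 of 8065 genes. The second probe set of Lama5 had a log2 ratio of only -0.11. In W/Wv 0 of 10 chains were at least 2-fold lower, beside 2274 of 12393 genes. Lamb1 was lower in both genotypes, 1.53-fold and 2.21-fold (adjusted p of 0.176), and Lama2 1.16-fold and 2.59-fold. Lama1 was 1.45-fold and 1.37-fold higher in tubules and Lama3 1.35-fold and 2.38-fold. Lamb2 was higher by 1.95-fold in W/Wv tubules but lower by 1.38-fold in those of XX/Sry. None of the 10 passed in both genotypes.

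Few of the related genes passed between the preparations. Of the 27 other basement membrane genes 1 was higher and 1 lower in tubules in both genotypes. The lower one, Smoc2, a matricellular calcium-binding protein, was 2.08-fold and 2.13-fold lower and did not pass in the fit (limma, adjusted p of 0.17). The higher one did not pass against the background bound. Of the 29 adhesion complex genes 0 were higher and 2 lower. Cd47, a membrane partner of integrins found on most cells, was 2.07-fold and 4.16-fold lower with an adjusted p of 0.0283 (limma). Fermt3, the kindlin of blood cells, was 2.63-fold and 3.97-fold lower and did not pass in the fit (adjusted p of 0.138).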

How the data were processed

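Total RNA of 4 samples was hybridised to 1 Affymetrix Mouse 430A array each for 16 h. The deposited values are array intensities on a linear scale, computed by the authors as MAS5 signals with Microarray Suite 5.0, per the submitters' processing notes and the labels' design text; the scaling target is not stated there. All 4 value columns were used and 0 left out. Of 22690 probe sets 64 controls were set aside; 20380 of the remaining 22626 have 1 gene symbol in the platform annotation and give 12393 genes.

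Signals were log2 transformed and ratios taken between single arrays. A gene passed at 2-fold the same way in both pairs, the rule of the design text. Against the background bound, a dimmer signal below its array's bound was raised to it, which gives the folds written "at least". The additive fit of genotype and preparation used limma 3.58.1 in R 4.3.3 (eBayes with a trend, two-sided, 1 residual and 9.98 prior degrees of freedom, Benjamini-Hochberg over 22626 probe sets in each comparison); it was tested on simulated data. It treats the arrays as independent, and its p-values may hold no spread between animals. Genes named with values were those past 2-fold in both pairs, Itga6, Nid2, the brightest of each role and those whose probe sets disagree; the remaining laminin, integrin and linker genes are given for completeness. The members and lists were chosen with earlier results of these data known. Alternatives were other scalings, an added constant of 50, the mean of all probe sets, a signal filter, a 1.5-fold threshold and a fit without trend.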

Additional observations from a re-analysis of the deposited data

Results flagged for a closer look

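5 genes had XX/Sry over W/Wv ratios of opposite sign in the 2 preparations with a double ratio of at least 2-fold and signals above background. With 1 array per group these differences were not tested. The log2 ratio in tubules minus that in whole testis was -1.16 for Lama2 (0.06 in whole testis, -1.10 in tubules), -1.36 for Lama5 (0.39 and -0.97), -1.43 for Lamb2 (0.31 and -1.11) and -1.51 for Lamc3 (0.67 and -0.84). These are representative probe sets. The second probe sets of Lama5 and Lamc3, also above background on all 4 arrays, gave -0.09 (-0.37 and -0.46) and -0.43 (0.07 and -0.36), so their difference was not seen at that size in both. The value was 2.37 for Itgax (-1.19 and 1.18), where 1 signal of each pair lay below background. Of all genes that could show such a change, 1394 of 9193 did.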

How the results depend on the processing

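Itgb5 remained the only gene called higher in XX/Sry under every scaling, filter and threshold tried. The other counts and medians moved as follows; the cause was not tested. Without a trend in the error 0 probe sets of the 63 were called in either comparison (3 and 4 as deposited). The 3 genes called lower in XX/Sry became 0 with a constant of 50 added, with a signal filter, against the background bound and when scaled to the spike controls, and 6 at 1.5-fold. Genes called lower in tubules (2) became 1 after median scaling or quantile normalisation, 0 with the constant, and 5 at 1.5-fold or when scaled to the spike controls. Those called higher (2) became 1 with the constant and 0 when scaled to the spike controls. Probe sets called for genotype fell to 1 after median scaling and with the constant. With the mean of a gene's probe sets the fit counts genes, and 1 was called for genotype (Itgb5) and 2 for preparation (Itga6 and Itgb5). Those are the same genes whose probe sets were called as deposited.

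The median log2 ratio of the 36 genes for W/Wv tubules over testis, 0.12, was 0.48 after quantile normalisation, 0.54 with the filter and -0.43 when scaled to the spike controls, and that for XX/Sry, -0.30, was 0.14 with the filter. Their genotype median was -0.04 in testis with the mean of probe sets and 0.13 in tubules when scaled to the spike controls. The laminin medians were 0.08 (genotype, testis) and -0.64 (preparation, XX/Sry) with the mean of probe sets, -0.47 for the latter with the filter, and -0.28 (genotype, tubules) and -0.06 (preparation, W/Wv) when scaled to the spike controls. Of the values of 15 single genes, 183 stayed on the same side of the threshold, 9 lost a call, 7 gained one and 0 calls reversed. Genes without a call could change sign and still count among the 183. For Itgb1 the mean preparation log2 ratio was 0.67 as deposited and -0.06 with the mean of probe sets. For Itgav the mean genotype log2 ratio was -0.30 as deposited and 0.06 when scaled to the spike controls. With 1 array per group no replicate could be left out. Signals below background have no measured ratio.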
